A study of Mus musculus with 12 samples.

Results

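The genes of cyclic nucleotide signalling were followed in corneal endothelial cells (CEC) of mice, together with the histamine receptor gene *Hrh2*. They were chosen by symbol among the 15838 genes with a mean level: adenylyl and guanylyl cyclases, phosphodiesterases, subunits of the cAMP-dependent protein kinase PKA, the cGMP-dependent kinases, natriuretic peptide receptors, the cAMP-regulated exchange factors, adenosine, adrenergic and prostaglandin receptors, *Creb1* and *Crem*. *Hrh2* was added for its value in the authors' own test of the genotype by sex interaction, which is not used here. The rule took 48 of the 15838 genes, and all 48 are annotated as protein coding. RNA was sequenced from the Descemet membrane with its endothelium, taken at 10 weeks of age from *Slc4a11*-/- mice (KO), which carry a targeted deletion within *Slc4a11*, and from their *Slc4a11*+/+ littermates (WT). The 12 libraries fall into 4 groups of 3, which are WT males, WT females, KO males and KO females. No other allele or treatment is given for these mice.

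Cyclic AMP is made by adenylyl cyclases when a receptor coupled to the stimulatory G protein Gs is occupied, and it is broken down by phosphodiesterases. It acts by freeing the catalytic subunits of PKA from their regulatory subunits, by activating the exchange factors Epac1 and Epac2, and, through PKA, on the transcription factors CREB and CREM. Cyclic GMP is made by soluble guanylyl cyclase in response to nitric oxide or by membrane receptors for natriuretic peptides, and it acts largely through the kinases PKG1 and PKG2. In the corneal endothelium, cAMP is known for its effects on fluid transport and on the cell junctions.

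For each gene 1 value was used, the authors' mean log2 CPM over all libraries, where CPM scales the counts of a gene to the reads of its library. This value pools KO with WT and males with females, so it carries no SD, and no value per library or per group was used. The coefficients, t and p of the authors' comparisons of genotype, sex and their interaction were not used, and no difference between KO and WT or between the sexes is therefore given for any gene. Depth per library is unknown here. CPM below are 2 raised to the mean log2 CPM. Ratios, shares and orders between genes use the level divided by the length of all annotated exons (CPM per kb). Where the set or a gene is placed among all genes, the value without division is given together with that per kb. Since no error is known, an order between genes of similar level is not established.

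The membranes carried the markers of CEC at high levels. Of 14 corneal endothelial markers, 14 had a value and 13 had a mean of at least 100 CPM, led by *Col8a2* with 7100 CPM and *Aqp1* with 5279 CPM. *Car2*, the carbonic anhydrase II gene, was the exception with 1.67 CPM. *Slc4a11* itself had 1676 CPM over WT and KO libraries together. Markers of the corneal stroma were high as well, with 5 of 7 at or above 100 CPM, among them *Kera* with 342 CPM and *Col1a2* with 4296 CPM. Of the 8 epithelial markers 2 reached 100 CPM, *Clu* with 1136 CPM and *Aldh3a1* with 1065 CPM. *Krt12*, which defines the corneal epithelium, had 6.07 CPM, and *Krt5* had 34.8 CPM. Of the 7 muscle markers 1 reached 100 CPM, *Myh11* with 206 CPM. No marker of iris pigment cells, leukocytes, nerve, vessels, lens or photoreceptors did, and the haemoglobin genes *Hbb-bs* and *Hba-a1* had no row. Below that level, 2 of the 6 nerve markers reached 10 CPM, *Pmp22* with 81.1 CPM and *Mbp* with 54.9 CPM. The part of these cells in the levels below was not tested. In bulk RNA, fewer cells of a type and less RNA per cell cannot be told apart.

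**Figure D1:**
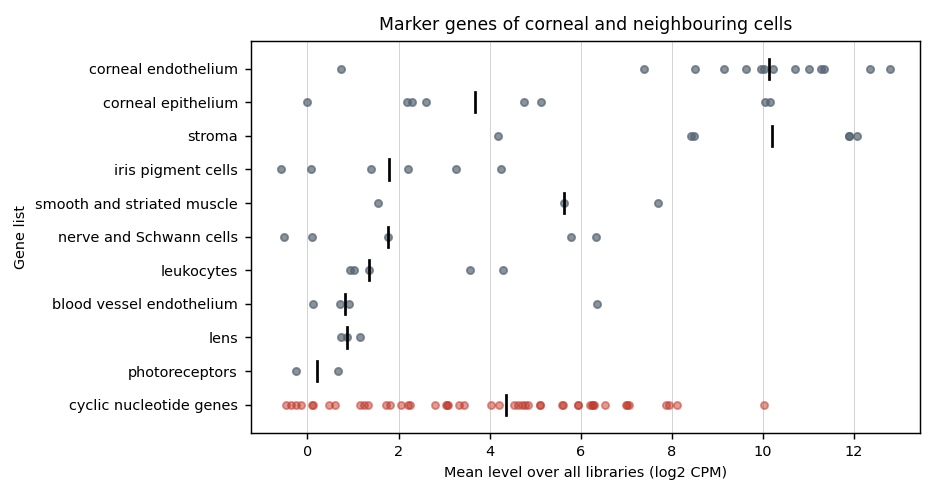
Mean level over all libraries (x axis, log2 CPM) of marker genes by list (y axis), with the median of each list as a black bar and 47 of the 48 cyclic nucleotide genes in the bottom row. The endothelial and stromal lists have medians of 10.13 and 10.19, against 4.36 for the 48 cyclic nucleotide genes.

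The place of the cyclic nucleotide genes among other genes depended on the scale. Their median was 4.36 log2 CPM, against 3.76 over all 15838 genes and 4.37 over the 12994 protein coding genes. Per kb their median was lower than both, at 1.37 on the log2 scale of CPM per kb, against 1.79 over all genes with a length and 2.19 over the protein coding genes. At least 1 CPM was reached by 44 of the 48 (91.7%), against 91.0% of all genes and 95.3% of the protein coding genes. At least 10 CPM was reached by 28 (58.3%), against 55.6% and 66.7%. At least 100 CPM was reached by 8 (16.7%), against 10.8% and 13.1%. Among them were *Npr3*, *Prkg1*, *Prkar1a*, *Adcy5*, *Pde4dip*, *Prkacb* and *Prkaca*. The 4 genes below 1 CPM were *Gucy1a1*, *Adora2a*, *Pde6b* and *Gucy1a2*. Levels ran from -0.48 log2 CPM for *Gucy1a1* to 10.03 for *Npr3*. The GENCODE annotation holds 69 protein coding genes that fit the symbols, and the other 21 have no row in the tables. Any filter on low values that the authors set before deposit is not given in the sources used here, so having no row is not read as having no expression.

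**Figure D2:**
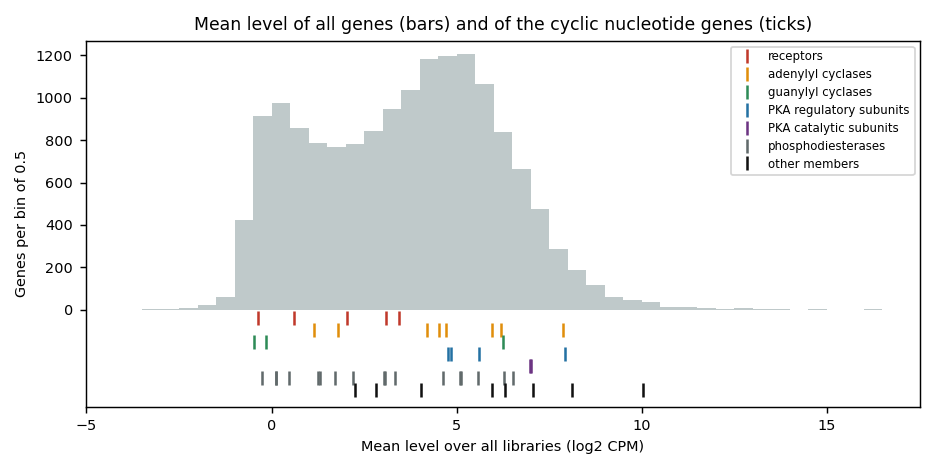
Number of genes (y axis) by mean level over all libraries (x axis, log2 CPM) for all 15838 genes in grey, with 47 of the 48 cyclic nucleotide genes as coloured ticks below the axis, 1 line of ticks per role. The ticks spread over most of the range of the grey bars, from -0.48 to 10.03.

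The adenosine, histamine and prostaglandin receptors were low or moderate in level. *Adora2b*, the low-affinity adenosine receptor coupled to Gs, had 4.13 CPM or 2.24 CPM per kb. *Adora1*, the adenosine receptor coupled to the inhibitory G protein Gi, had 10.8 CPM or 1.87 CPM per kb. *Adora2a*, the high-affinity adenosine receptor coupled to Gs, had 0.254 CPM per kb and *Ptger4*, a prostaglandin E2 receptor coupled to Gs, 0.228 CPM per kb. Of the summed level per kb of these genes and *Hrh2*, 5 in all, *Adora2b* held 37.2%, *Adora1* 31.0% and *Hrh2* 23.7%. *Adora3* and *Ptger2* had no row. Of the exonic bases of *Adora1*, 20.1% lie opposite exons of another gene, mainly *Mybph*, and of those of *Ptger4* 16.5%. The paper names a stranded library kit. Whether strand was used in counting is not given in the sources used here, so reads of these pairs may not be told apart.

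*Hrh2* (ENSMUSG00000034987), the histamine H2 receptor gene, lies on the plus strand of chromosome 13 from 54192129 to 54236180 in GRCm38, with 3 annotated transcripts. Its mean was 3.08 log2 CPM, or 8.46 CPM, and 41.6% of all genes had a lower mean. Per length it came to 1.43 CPM per kb, with 30.3% of genes lower, the third of these 5 receptors. *Adora1* was 1.31 times as high, and *Hrh2* was 6.26 times *Ptger4*, whose low mean of 1.51 CPM is of unknown precision. With coding length in place of exon length *Hrh2* was at rank 2, above *Adora2b*, so the order among *Adora2b*, *Adora1* and *Hrh2* rests on the length used. Since the mean of *Hrh2* pools the 4 groups whose difference put the gene into this set, it need not be the level in any of them.

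The other histamine genes were a mixed set. Of 7 on the list, 3 had a value. *Hnmt*, the methyltransferase that inactivates histamine within cells, had 31.4 CPM or 17.8 CPM per kb. *Hdc*, histidine decarboxylase, which makes histamine, had 5.84 CPM or 0.914 CPM per kb, so that *Hnmt* was 19.4 times *Hdc* per length, and 12.1 times with coding length. *Hrh1*, the H1 receptor, which signals through another G protein, had 0.663 CPM, with 2.49% of all genes lower (2.09% per kb). *Hrh2* was 9.57 times *Hrh1* per length, and 14.8 times with coding length. Both ratios rest on this low value of *Hrh1*, whose precision is unknown. *Hrh3*, *Hrh4* and the transporters *Slc22a3* and *Slc29a4* had no row.

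For the G proteins that couple these receptors to cyclases, *Gnai2* had 268 CPM or 70.9 CPM per kb and *Gnai3* 78.4 CPM. Both encode inhibitory α subunits. *Gnas*, which encodes the stimulatory α subunit, had 73.3 CPM or 6.55 CPM per kb. Per length *Gnai2* was 10.8 times and *Gnai3* 3.67 times *Gnas*, and with the longest transcript 6.52 and 1.29 times. The exon length of *Gnas* covers a locus with many alternative transcripts, so its level per kb depends on the length chosen. *Gnao1* had 8.24 CPM per kb, and *Gnai1* had no row. *Arrb1* and *Arrb2*, the arrestins that end receptor signalling, had 8.24 and 3.02 CPM per kb, and *Grk2*, the kinase that marks receptors for them, 10.4 CPM per kb. In the prostaglandin arm, *Ptgs2*, the inducible cyclooxygenase, was 3.96 times the constitutive *Ptgs1* per length. *Ptger3*, a prostaglandin E2 receptor coupled mainly to Gi, had 3.27 CPM per kb. It was 14.4 times *Ptger4*, and 17.2 times with coding length. Both ratios rest on the low 1.51 CPM of *Ptger4*, whose precision is unknown. In the adenosine arm, *Slc29a1*, a nucleoside transporter, had 15.0 CPM per kb, and *Nt5e*, which makes adenosine outside the cell, 0.383 CPM per kb.

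Of the 10 adenylyl cyclase genes 8 had a value, all of them above 1 CPM and 6 above 10 CPM. *Adcy5* (ENSMUSG00000022840, chromosome 16, 35154877 to 35305738, plus strand) was the highest with 235 CPM or 32.8 CPM per kb, 51.5% of the summed level per kb of the 8. *Adcy6* had 10.9 CPM per kb and *Adcy7* 9.17. *Adcy9* followed with 4.43, *Adcy3* with 2.94 and *Adcy1* with 2.09 CPM per kb. *Adcy2* and *Adcy4* were under 1 CPM per kb, at 0.829 and 0.476. *Adcy5* and *Adcy6* are the cyclases that calcium and Gi inhibit, and together they held 68.7% of the family. The group stimulated by Gβγ, made of *Adcy2*, *Adcy4* and *Adcy7*, held 16.5%. The calcium-stimulated cyclases *Adcy1* and *Adcy3* held 7.91%, and *Adcy8*, the other of that group, had no row. Neither had *Adcy10*, the soluble cyclase activated by bicarbonate. Of the exonic bases of *Adcy3*, 22.1% lie opposite exons of *Cenpo*.

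Among the guanylyl cyclase genes with a value, 1 gene held nearly all of the level. *Npr2* (ENSMUSG00000028469, chromosome 4, 43631935 to 43651244, plus strand), the receptor cyclase for C-type natriuretic peptide, had 75.9 CPM or 16.3 CPM per kb. It held 98.6% of the summed level per kb of the 3 genes with a value. The remainder were 2 α subunits of soluble guanylyl cyclase, *Gucy1a2* with 0.136 CPM per kb and *Gucy1a1* with 0.103. Their obligate partner *Gucy1b1* had no row, and neither had *Npr1*, the receptor cyclase for atrial natriuretic peptide. Of the 11 annotated genes of this family, 8 had no row.

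*Npr3* (ENSMUSG00000022206, chromosome 15, 11839896 to 11907287, minus strand) was the highest of all 48 genes. It encodes the natriuretic peptide receptor without a cyclase domain, known for clearing natriuretic peptides from the tissue. Its mean was 1046 CPM or 111 CPM per kb, and 99.5% of all genes had a lower mean (98.8% per kb). Per length it was 6.85 times *Npr2* and 0.332 times *Slc4a11*. With coding length it was 26.9 times *Npr2* and about level with *Slc4a11*. The mean of *Slc4a11* pools WT with KO libraries, which carry a deletion within that gene. The ratios to *Slc4a11* need not hold in WT cells. The natriuretic peptide genes *Nppa*, *Nppb* and *Nppc* had no row. Of the nitric oxide synthases *Nos1* had 1.13 CPM, while *Nos2* and *Nos3* had no row.

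Downstream of cGMP, *Prkg1*, the gene of PKG1, had 275 CPM or 25.4 CPM per kb, and *Prkg2* 1.30 CPM per kb. *Prkg1* was 19.4 times *Prkg2*, and 43.7 times with coding length. *Vasp*, whose protein is a known substrate of PKG and PKA at the actin cytoskeleton, had 30.9 CPM per kb. The channels opened by cyclic nucleotides were mostly without a row. Of 10 such genes 3 had a value, and *Hcn2*, the gene of a cation channel gated by voltage and cAMP, led with 33.3 CPM per kb. *Hcn3* had 0.333 CPM per kb and *Cngb1* 0.349.

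The PKA subunits were all present, each at 10 CPM or more. *Prkar1a* (ENSMUSG00000020612, chromosome 11, 109649405 to 109669656, plus strand), the regulatory subunit RIα, had 244 CPM or 56.5 CPM per kb. This was 71.3% of the summed level per kb of the 4 regulatory subunits. *Prkar2b*, *Prkar2a* and *Prkar1b* lay close together at 7.90, 7.64 and 7.21 CPM per kb. The type I subunits, which form the largely soluble holoenzyme, held 80.4% and the type II subunits, which bind anchoring proteins most tightly, 19.6%. Of the 2 catalytic subunits, *Prkaca* had 127 CPM and *Prkacb* 129 CPM. Per length *Prkaca* had 51.2 and *Prkacb* 14.7 CPM per kb, a ratio of 3.49. *Prkacb* has 8772 exonic bases and *Prkaca* 2488, and with coding length *Prkaca* held 52.9% of the pair. The summed level per kb of the catalytic subunits was 0.832 times that of the regulatory subunits.

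Of 3 genes of PKA inhibitor peptides, *Pkig* had 12.9 and *Pkia* 9.52 CPM per kb, and *Pkib* had no row. The A-kinase anchoring proteins, which hold PKA at places in the cell, had values for 11 of 12 genes, 9 of them at or above 10 CPM and 5 at or above 100 CPM. *Ezr*, which encodes the membrane linker ezrin, was the highest with 87.6 CPM per kb. *Akap12* followed with 20.1 and *Akap9* with 15.3 CPM per kb. *Rapgef3*, the gene of Epac1, had 78.7 CPM or 12.4 CPM per kb, while *Rapgef4*, the gene of Epac2, had no row. *Rapgef3* was 0.220 times *Prkar1a*, and 0.133 times with coding length.

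**Figure D3:**
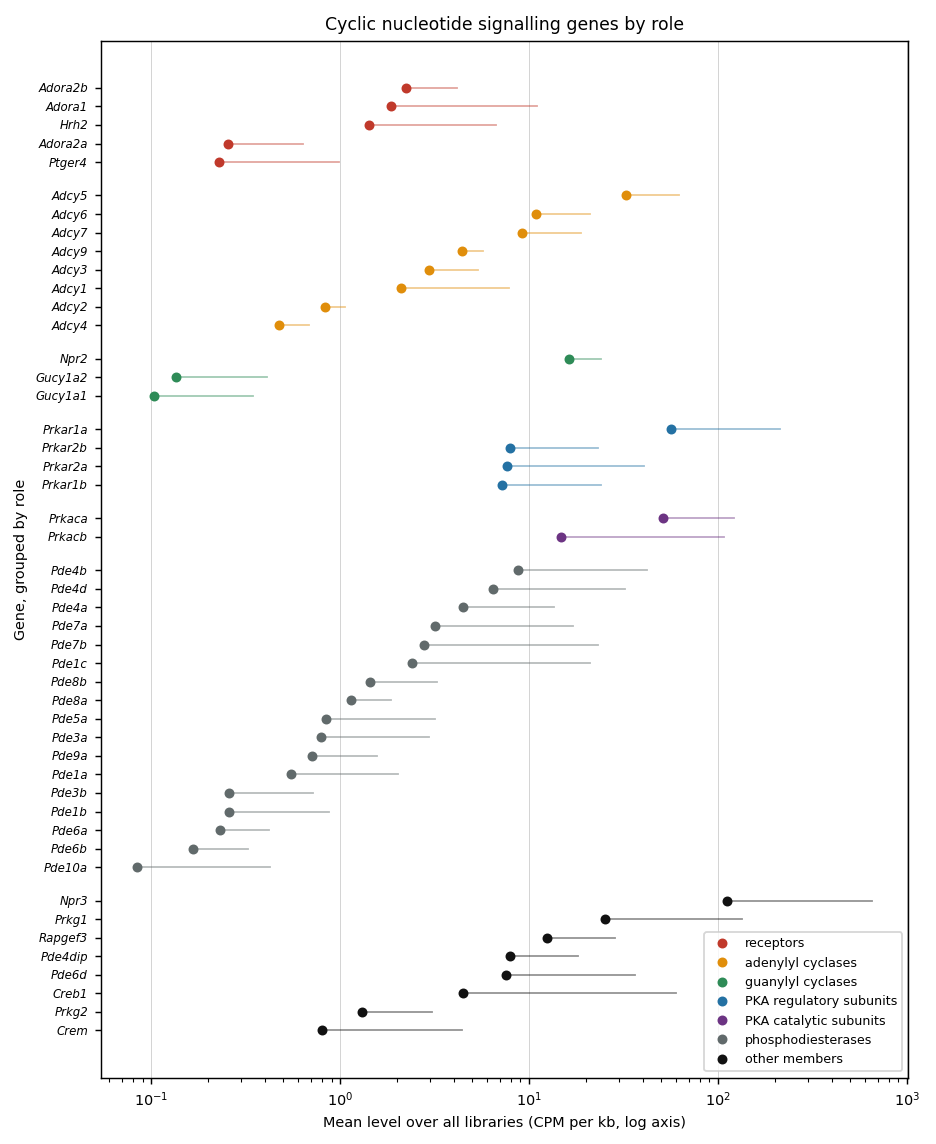
Mean level over all libraries of 47 of the 48 genes (x axis, CPM per kb, log axis), grouped by role (y axis). Points use the length of all annotated exons, and each line spans the values with exon length, longest transcript and coding length. *Npr2* and *Prkar1a* lie apart from the other points of their role, at 16.3 and 56.5 CPM per kb.

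Among the phosphodiesterases 17 enzyme genes had a value, 16 of them at or above 1 CPM and 7 at or above 10 CPM. *Pde4b* (ENSMUSG00000028525, chromosome 4, 102087543 to 102607259, plus strand) was the highest with 92.7 CPM or 8.78 CPM per kb. *Pde4d* had 6.47 and *Pde4a* 4.48 CPM per kb. These 3 PDE4 genes, which encode cAMP-specific enzymes, held 57.1% of the summed level of the 17. *Pde7a* and *Pde7b* held 17.3% and *Pde8a* and *Pde8b* 7.43%, so that genes of cAMP-specific enzymes held 81.8% in all. The genes of enzymes that split both nucleotides held 12.5%. Of these, *Pde1c*, a calmodulin-dependent enzyme, had 48.0 CPM or 2.39 CPM per kb, and *Pde3a*, an enzyme that cGMP inhibits, 0.791 CPM per kb. The genes of cGMP-specific enzymes held 5.62%, with *Pde5a* at 0.840 and *Pde9a* at 0.705 CPM per kb. *Pde10a* was the lowest of all 48 genes per length, at 0.0844 CPM per kb.

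*Pde6a* and *Pde6b*, the catalytic subunits of the rod photoreceptor enzyme, had 1.08 and 0.835 CPM. Of the photoreceptor markers, *Sag* had 1.59 CPM and *Gnat1* had no row. The part of photoreceptor RNA in *Pde6a* and *Pde6b* was not tested. A pair of genes match the symbols without encoding a phosphodiesterase. *Pde4dip*, the gene of the centrosomal and Golgi scaffold myomegalin, had 134 CPM or 7.97 CPM per kb. *Pde6d*, the gene of a chaperone of prenylated proteins, had 16.4 CPM or 7.51 CPM per kb. With both counted in, *Pde4b* held 17.5% of the 19 genes, and without them 25.4% of the 17. *Abcc4* and *Abcc5*, exporters that carry cyclic nucleotides out of cells, had 7.22 and 11.1 CPM per kb.

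**Figure D4:**
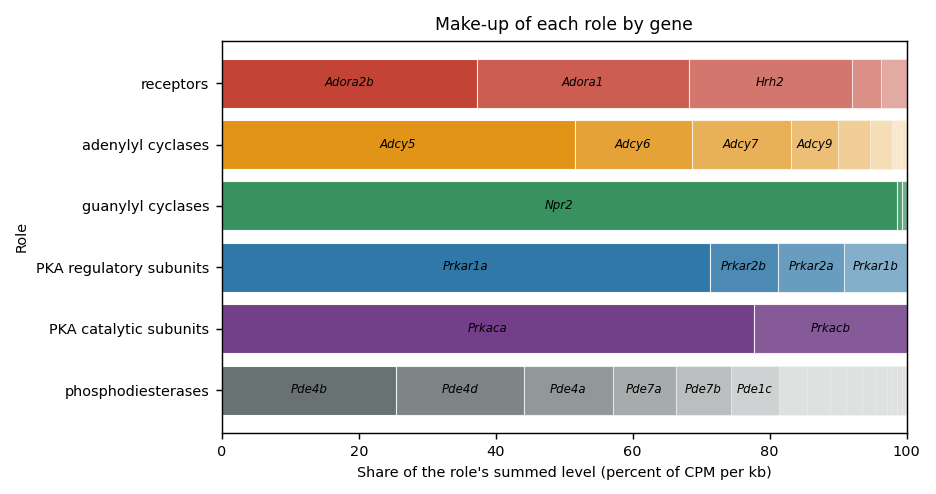
Share of each gene in the summed level of its role (x axis, percent of CPM per kb) for 6 roles (y axis), with the highest gene at the left and names given to shares over 6%. A single gene holds 98.6% among the 3 guanylyl cyclases with a value and 71.3% among the PKA regulatory subunits. The highest phosphodiesterase holds 25.4% and the highest of the 5 receptors shown 37.2%.

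At the end of the cAMP pathway, *Creb1*, the CREB transcription factor, had 61.5 CPM or 4.48 CPM per kb. *Crem*, which gives rise to activators and to the inducible repressor ICER, had 4.74 CPM or 0.803 CPM per kb. *Creb1* has long untranslated exons, and its rank among the 48 genes was 19 with exon length and 8 with coding length, the largest move of any. The coactivators *Crebbp* and *Ep300* had 318 and 243 CPM. *Atf1*, a relative of CREB, had 10.0 CPM per kb. The CREB coactivators *Crtc2*, *Crtc1* and *Crtc3* had 6.04, 5.09 and 2.91 CPM per kb.

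The cAMP response element, the site that CREB and CREM bind, was searched in promoter windows of 300 bases from RefSeq (GRCm38.p6), 250 bases before to 50 after each start site. Of the 48 genes 38 had a window, with 76 windows in all. The full element TGACGTCA, which reads the same on both strands, was in 2 of the 76 windows (2.63%), against 1.79% of all 32851 windows. The core element TGACG, searched on both strands and contained in the full one, was in 17 (22.4%), against 20.8% of all windows. Counted by gene, 15 of the 38 (39.5%) had it in at least 1 window, against 23.0% of the 27025 genes with a window, but the 38 had 2 windows per gene and all genes 1.22. The 27025 were also not limited to protein coding genes or to genes with a value here, as the 38 were. Both windows with the full element belong to *Prkar1a* and share the same 1 element. With 10 bases on each side it spans chromosome 11 from 109650890 to 109650917. It is shown because it is the only full element in these windows and lies at the highest regulatory subunit, with the element in capitals.
Prkar1a: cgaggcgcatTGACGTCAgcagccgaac
In the window it was read from, the element begins at position -49 from the start site. The 2 windows of *Hrh2* held neither the full nor the core element. A match is a match of letters, and binding was not measured here.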

How the data were processed

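CEC with Descemet membrane were sequenced in 12 libraries, and samples were grouped by the genotype label. The labels describe pooled membranes and the paper membranes processed as pairs. The authors aligned paired-end reads to GRCm38/mm10 with HISAT2, converted counts to TMM-normalized CPM and fitted limma with voom. Versions, counter and annotation release are not given in the sources used here. The authors deposited 3 tables of 15838 genes, for genotype, sex and interaction. Of these, only the mean expression of each gene was used, which the authors deposited on the log2 scale as log2 CPM averaged over all libraries. It was identical in the 3 tables. The other 5 columns of numbers hold the authors' own comparisons (log2FC, t, p-value, adjusted p-value and log odds) and were not used, so no groups were compared and no error is given.

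Positions and lengths are from GENCODE M21 (GRCm38), which held 15824 of the 15838 genes and all 48 reported. CPM per kb is CPM divided by the union of exons in kb, computed with pandas 2.3.3 under Python 3.11.15. The text names the genes that fit the symbol rule, the genes of a list of 69 other pathway genes, and 11 lists of cell type markers, with values for those described. Of these, 2 genes are not reported here and were left out of the figures and family shares. The members and lists were chosen with earlier results of these data known, and the sub-classes of cyclases, phosphodiesterases and PKA were formed after the levels were seen. Alternatives were other gene lengths, thresholds and summaries.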

Additional observations from a re-analysis of the deposited data

How the results depend on the processing

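The highest gene of each role was the same in 15 of 19 alternatives for length or membership. Without division by length *Prkacb* led the catalytic subunits with 50.3%, *Pde4dip* the genes with the Pde prefix with 26.5% and *Adora1* the 5 receptors with 42.0%, and with coding length *Adora1* led them with 47.0%. With the longest transcript *Adora2b* held 31.4% of the receptors. With the longest transcript, coding length and no division, respectively, *Adcy5* held 49.7%, 50.8% and 53.0%, *Prkar1a* 70.7%, 70.9% and 69.9%, and *Npr2* 98.0%, 97.0% and 97.9%. *Pde4b* held 21.5% and 19.0% with the first 2 of these, and 25.4% among the enzymes only, an alternative chosen after seeing the data. *Prkaca* held 65.4% and 52.9% with the first 2. *Hrh2* had rank 3 among the receptors with the longest transcript and rank 2 with coding length or no division. The members' level was 3.98 log2 CPM as a mean, 4.67 as a median of those at or above 1 CPM and 4.53 as a median without *Hrh2*. At 2 CPM or more there were 40 members, and 43 at 1 CPM without *Hrh2*.

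No paired analysis was possible because the values used are pooled over all libraries. For the same reason no library was left out, no batch examined and no outlier sought. The depth of the libraries is unknown, which leaves the precision of genes near 1 CPM unknown. Pooling KO with WT and males with females hides any difference between them, and the geometric mean understates a gene that is high in 1 group alone.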

Other observations

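Within the list of corneal epithelial markers the levels were uneven. *Aldh3a1*, a corneal crystallin, had 1065 CPM and *Clu*, the clusterin gene, 1136 CPM. The basal keratin genes *Krt5* and *Krt15* had 34.8 and 26.9 CPM, whereas *Krt14* had 4.55 CPM, *Pax6* 4.88 CPM and *Cdh1*, the epithelial cadherin gene, 0.995 CPM. *Kdr*, the VEGF receptor gene, had 82.1 CPM, while the other vessel markers *Pecam1*, *Cdh5* and *Tek* had 1.90, 1.64 and 1.09 CPM. These values are given without an explanation.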
